A study of Mus musculus with 69 samples.

Results

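The tissue inhibitors of metalloproteinases (TIMPs) and a set of matrix metalloproteinases (MMPs) were followed in the lungs of mice instilled with titanium dioxide (TiO2) nanomaterials. The genes were taken by name: the inhibitors Timp1, Timp2 and Timp3 and the proteases Mmp2, Mmp3, Mmp9, Mmp12, Mmp13, Mmp14 and Mmp19, which were 10 of the 18656 genes tested. They were read by 13 of the 41174 probes, those whose accession had such a symbol in RefSeq: a pair of probes each for Timp1, Mmp9 and Mmp14 and a single probe for each of the others. The set was chosen by the measured changes after NRCWE-030 on day 1, in limma's fit of that material, so for this material and day the values are a description and carry no test. Tests are given for the other comparisons, and those that use the day 1 controls share these arrays with that fit.

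The mice were female C57BL/6, 5 to 7 weeks old, and were acclimatised for 1 to 3 weeks. Each received a single intratracheal instillation of 18, 54 or 162 µg of NRCWE-025 or NRCWE-030, the names of both TiO2 nanomaterials, dispersed in 2% serum in water, or of that vehicle alone (control). Lungs were taken after 24 h (day 1) or on day 28, and 200 ng of total RNA of each mouse was labelled with Cy5 and hybridised, 1 array per mouse, against a Cy3-labelled commercial pool of mouse RNA, always in this dye orientation. This made 14 groups, 13 of 5 arrays and NRCWE-025 162 µg day 28 with 4, and the 5 controls of a day served both materials. Values are given as log2 of the lung signal over that of the reference RNA. A value is read only within its gene, since a reference level that differs between genes sets the height of each ratio. In whole lung, fewer cells of a type and less RNA per cell cannot be told apart.

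MMPs are zinc-dependent endopeptidases that are made as inactive proenzymes and cut collagens, elastin, proteoglycans and many non-matrix proteins. TIMPs bind the active site of these enzymes and block it, and some of them also block disintegrin metalloproteinases. In lung injury both sides are switched on by cytokines: TIMP-1 is a secreted protein induced along with the acute phase response, MMP-9 is stored in neutrophil granules, and MMP-12 is typical of macrophages.

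All 5 markers of alveolar type 2 cells were well above background on all 69 arrays. The share of spots well above background in Cy5 ran from 49.1% to 72.8% over arrays (median 62.1%), and 0 spots were saturated. Of the 13 probes, 11 were well above background on all 69 arrays. The Mmp13 probe was so on 32 and the Mmp12 probe on 10, so the values of these genes mostly lay at the floor. The Mmp9 and Mmp19 probes were dim as well, with median Cy5 signals of 185.5 and 143.5 for Mmp9 and 127 for Mmp19 over local backgrounds of 71 to 71.5.

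The region just upstream of the transcription start was available from RefSeq (assembly GRCm38.p6) for 7 of the 10 genes, as 250 bases before the start, with 2 starts for Mmp12 and thus 8 windows. The windows of Timp1 and of the 3 proteases with a match to the AP-1 motif are shown because AP-1 and the TATA box are the textbook elements of inducible MMP promoters. Capitals mark the AP-1 motif TGANTCA. They also mark the TATA box, TATAAA. Each sequence runs 5′ to 3′ on the strand of its gene, which is the plus strand for these 4.
Timp1, chrX:20869916-20870165: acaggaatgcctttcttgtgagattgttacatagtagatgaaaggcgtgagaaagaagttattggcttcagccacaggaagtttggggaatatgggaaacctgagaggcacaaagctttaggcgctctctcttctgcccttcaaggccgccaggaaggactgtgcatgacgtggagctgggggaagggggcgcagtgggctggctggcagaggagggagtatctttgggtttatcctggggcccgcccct
Mmp3, chr9:7445572-7445821: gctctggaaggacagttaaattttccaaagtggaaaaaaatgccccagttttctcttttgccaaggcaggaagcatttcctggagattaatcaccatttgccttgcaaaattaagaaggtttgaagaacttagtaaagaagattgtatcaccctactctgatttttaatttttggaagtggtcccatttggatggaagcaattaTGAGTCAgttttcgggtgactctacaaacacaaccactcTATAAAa
Mmp12, chr9:7347124-7347373: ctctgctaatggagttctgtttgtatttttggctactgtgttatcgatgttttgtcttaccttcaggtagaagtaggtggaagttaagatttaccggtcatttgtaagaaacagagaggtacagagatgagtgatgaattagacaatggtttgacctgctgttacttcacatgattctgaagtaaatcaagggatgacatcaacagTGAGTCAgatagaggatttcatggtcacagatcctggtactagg
Mmp13, chr9:7272264-7272513: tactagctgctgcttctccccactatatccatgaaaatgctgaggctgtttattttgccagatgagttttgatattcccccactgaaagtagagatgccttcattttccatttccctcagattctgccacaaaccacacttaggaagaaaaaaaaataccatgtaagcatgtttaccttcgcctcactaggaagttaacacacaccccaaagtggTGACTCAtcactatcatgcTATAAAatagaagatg

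AP-1 was matched 46 to 40 bases before the start of Mmp3, 44 to 38 before a start of Mmp12, and 35 to 29 before that of Mmp13. The window of the other start of Mmp12, which is not shown, had no match. These 3 genes lie within the same MMP cluster on chromosome 9. On either strand, TGANTCA was found in 6.75% of 32851 mouse promoter windows of this length and TATAAA in 12.4%, and the latter stood 7 to 2 bases before the start of Mmp3 and 16 to 11 before that of Mmp13. The CCAAT box was matched in the windows of Timp1, Timp2 and Mmp14 and in 33.8% of all windows. Neither the NF-kB motif (4.65% of windows) nor the STAT motif TTCNNNGAA (7.02%) was matched in any of the 8. Of the 3 genes with AP-1, Mmp3 is the one whose level is described as higher on day 1, while Mmp12 and Mmp13 lay mostly at the floor.

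The changes of all members against the controls of the same day are set out in the plot of log2 changes by gene, material, dose and day. On day 1, the inhibitor Timp1 had the largest rises after 54 and 162 µg of both materials, followed by the stromelysin Mmp3 after 162 µg. On day 28 the gelatinase Mmp9 had a lower mean than the controls at every dose of both materials, as had Timp2, Timp3, Mmp2 and Mmp14, and of these it alone passed the test, at 54 and 162 µg of NRCWE-030. The changes of Mmp2, Mmp14 and Timp3 were at most 0.46 in either direction.

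**Figure D1:**
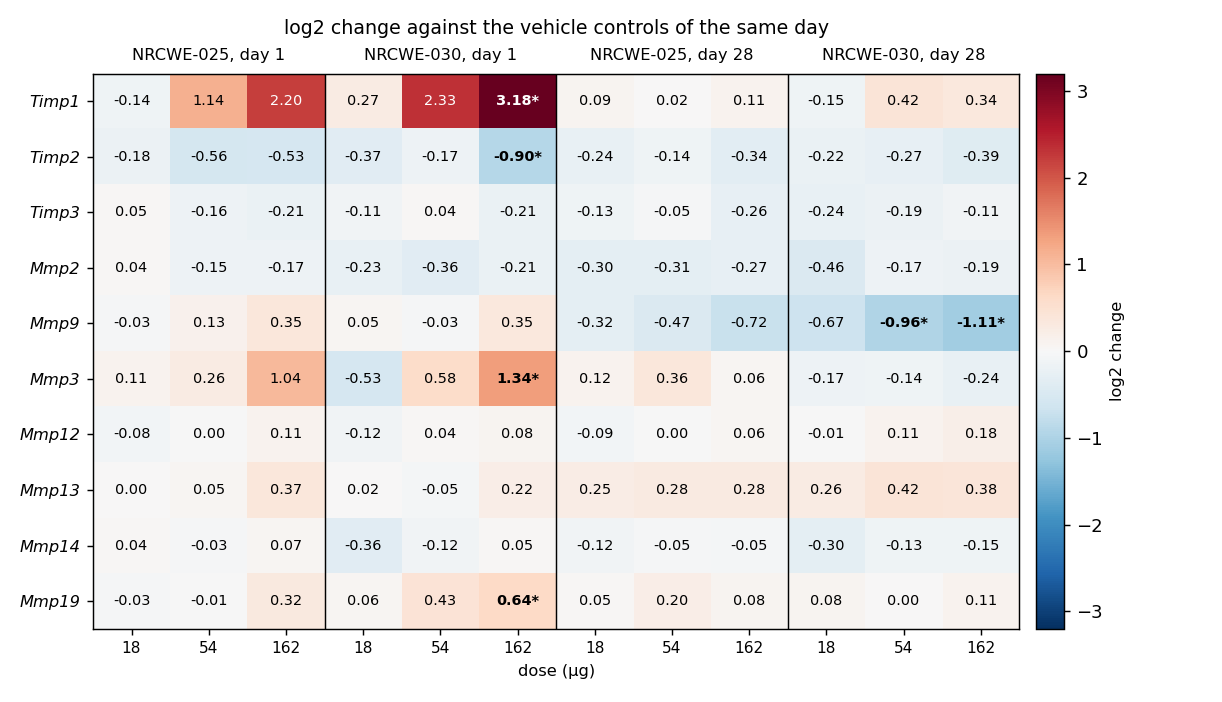
Log2 change of each gene (vertical axis) against the vehicle controls of the same day, at 18, 54 and 162 µg (horizontal axis) of NRCWE-025 and NRCWE-030 on days 1 and 28. Red is higher, blue is lower, and bold values with a star had a limma adjusted p under 0.05. Stars for NRCWE-030 on day 1 are a description, since the genes were chosen by these values. Timp1 on day 1 reached 3.18 and Mmp9 on day 28 reached -1.11, both at 162 µg of NRCWE-030.

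The question for day 1 was which of these genes differed from vehicle 24 h after instillation. At 162 µg of NRCWE-030, 4 of 10 genes passed an adjusted p of 0.05 in limma, against 316 of all 18656 genes (1.69%). They were Timp1, Mmp3 and Mmp19, higher (1.22% of all genes), and Timp2, lower (0.472% of all genes). Since this contrast was in view when the genes were named, nothing is read from these counts. In the dose effect for this material and day, limma's F-test over control and the 3 doses called Timp1 and Mmp3, with 0.954% of all genes called. At 54 and 18 µg, 0 of 10 genes were called (0.0804% and 0.00536% of all genes).

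Timp1 encodes the secreted inhibitor of most MMPs. Its log2 ratios in the day 1 controls were -2.15, -2.08, -2.35, -2.42 and -2.19, and after 162 µg of NRCWE-030 they were 1.53, 1.37, 0.92, 0.40 and 0.50. The lowest treated array thus lay well above the highest control, with a log2 change of 3.18 ± 0.46 (SE), or 9.08-fold. After 54 µg the values were -0.80, -0.08, 1.15, -1.49 and 1.66. All 5 again lay above the controls, but they spread over more than 3 log2 units and the change was 2.33 ± 0.46. At 18 µg the 5 values, from -2.76 to -1.21, overlapped the controls (change 0.27 ± 0.46).

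NRCWE-025 was the material that took no part in the choice of genes. Its day 1 contrasts use the same 5 control arrays as those of NRCWE-030, however, so they are not independent of that choice. After 162 µg of it on day 1, Timp1 read -1.81, -0.84, -0.30, 2.07 and 0.68, so that each mouse lay above all 5 controls, by margins from slight to over 4 log2 units. The change was 2.20 ± 0.52 (95% interval 1.11 to 3.29), or 4.60-fold, the 5th largest rise of 18656 genes. With this spread the contrast missed the threshold (limma adjusted p = 0.0740). Of the 10 members, 0 were called where 0.209% of all genes were, and 3 had an unadjusted p under 0.05. At 54 µg the values were -1.59, 0.06, -0.01, -2.01 and -1.93. These too all lay above the controls, 3 of them narrowly (change 1.14 ± 0.52, adjusted p = 0.743). Of the 10 members, 0 were called at 54 and at 18 µg, as were 0% of all genes, with 2 and 0 of 10 at an unadjusted p under 0.05. At 18 µg the range of -2.65 to -2.05 overlapped the controls (change -0.14 ± 0.52). Within the 2 slides that held both control and 162 µg arrays of NRCWE-025, the difference was 0.34 and 1.52, and within 3 scan days it ran from 0.34 to 4.26. The dose effect of NRCWE-025 on day 1 called 0 of 10 genes (0.0214% of all), with 2 of 10 at an unadjusted p under 0.05, and gave an adjusted p of 0.126 for Timp1.

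The spread of Timp1 among mice of a group varied with dose on day 1. The SD was 0.14 in the controls, 0.22, 1.04 and 1.48 at 18, 54 and 162 µg of NRCWE-025, and 0.71, 1.31 and 0.51 at 18, 54 and 162 µg of NRCWE-030 (n = 5 each). Ordered by mean, Timp1 lay between -2.70 and -1.97 in the 2 control groups, in both 18 µg groups of day 1 and in all 6 treated groups of day 28. The next were NRCWE-025 54 µg (-1.10), NRCWE-025 162 µg (-0.04), NRCWE-030 54 µg (0.09) and NRCWE-030 162 µg (0.94), all on day 1. Neighbours in that upper order lay closer to each other than the SD among arrays of NRCWE-025 162 µg.

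Both probes of Timp1 gave this order, with a Pearson correlation of 0.97 over the 69 arrays (a description, since the arrays share the treatments). The steps were larger on the brighter probe. At 162 µg of NRCWE-030 on day 1 it changed by 3.95 (15.4-fold) and the dimmer probe by 2.42 (5.34-fold). At 162 µg of NRCWE-025 the changes were 2.88 ± 0.62 (adjusted p = 0.0715 in limma's fit over 40831 probes) and 1.52 ± 0.43 (adjusted p = 0.165). The size of the fold thus depended on the probe, while both probes had higher means than the controls in all 4 groups at 54 and 162 µg on day 1. The separation from the controls depended on it too for NRCWE-025. On the dimmer probe the lowest array read -2.10 at 54 µg and -1.76 at 162 µg, against -2.07 to -1.66 in the controls.

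**Figure D2:**
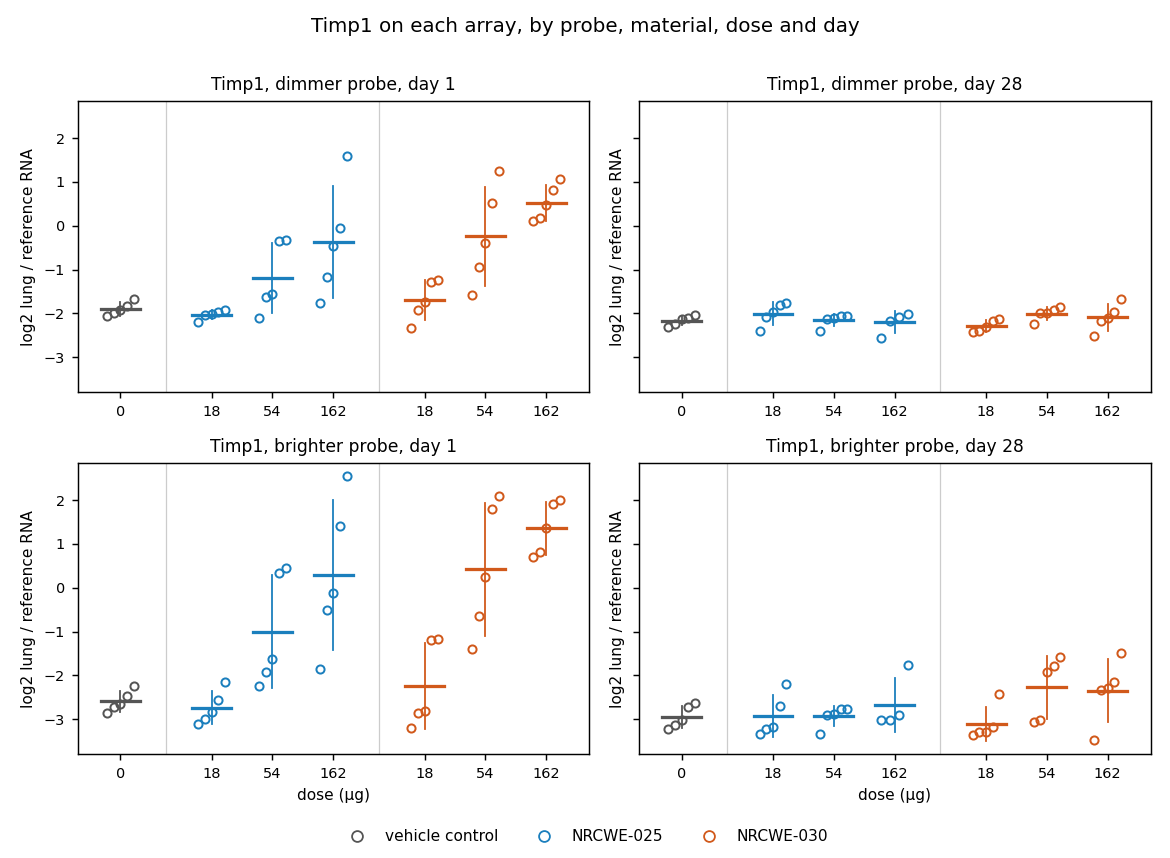
Timp1 on each array as log2 lung over reference (vertical axis), by dose in µg (horizontal axis), for the dimmer and the brighter probe on days 1 and 28. Circles are mice, horizontal lines are group means and vertical lines the SD; at 162 µg of NRCWE-030 on day 1 the change was 3.95 on the brighter probe and 2.42 on the dimmer, and single mice at 54 and 162 µg of NRCWE-025 reach down to the controls on the dimmer probe.

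On day 28, Timp1 did not pass the test at any dose of either material. After 162 µg of NRCWE-030 it read -2.13, -2.13, -2.26, -3.00 and -1.58 against -2.41, -2.53, -2.73, -2.72 and -2.38 in the controls, so that 4 of 5 arrays lay above all controls and 1 below them (change 0.34 ± 0.21, adjusted p = 0.752). At 54 µg of this material 3 of 5 lay above all controls (change 0.42 ± 0.21, adjusted p = 0.777). The change was 0.11 ± 0.17 at 162 µg of NRCWE-025 (adjusted p = 0.937). The difference between the day 1 and the day 28 effect of 162 µg was 2.85 ± 0.60 for NRCWE-030, a value that contains the contrast in view when the genes were named. For NRCWE-025 it was 2.09 ± 0.62 (95% interval 0.85 to 3.33, adjusted p = 0.154).

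Timp2, the inhibitor that also takes part in the activation of MMP-2 at the cell surface, went the other way on day 1. Its log2 ratios were 1.68, 2.56, 1.98, 2.09 and 2.18 in the controls and 1.34, 1.14, 1.57, 1.53 and 0.41 after 162 µg of NRCWE-030. Each treated array lay below the lowest control (change -0.90 ± 0.23, 0.535-fold), and the lowest of them, replicate 5, stood well below its group. With that array left out the change was -0.71 and was not called, and the call was lost on leaving out any of 14 of the 20 arrays of the fit. With 162 µg of NRCWE-025 the values 1.91, 1.89, 1.65, 1.29 and 1.11 overlapped the controls (change -0.53 ± 0.25, adjusted p = 0.409). On day 28 the changes of Timp2 ran from -0.39 to -0.14 over the 6 treated groups, with adjusted p-values of 0.733 or higher.

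Timp3, the inhibitor that is held in the extracellular matrix, showed the smallest differences between groups of the inhibitors. Its group means ran from 1.49 to 1.77, a range close to the pooled SD of 0.28 among arrays. It was called in 0 comparisons.

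Markers of other cells also differed from the controls on day 1, and their part in the changes above was not tested. Of 6 fibroblast markers, 5 were lower after 162 µg of NRCWE-030 on day 1 (median change -0.51; Pdgfra, -0.55, called), and the mean level of the list lay at 0.21 to 0.66 on these arrays against 0.63 to 1.15 in the controls. All 4 fat markers were lower (median -1.07), at 0.83 to 3.58 against 2.19 to 5.88, and the same 4 were lower after 162 µg of NRCWE-025 (median -1.31). Both lists also had lower means at 18 µg on day 1. The fat list averaged 1.84 (NRCWE-025) and 2.04 (NRCWE-030) there against 3.36 in the controls, and the fibroblast list 0.85 and 0.57 against 0.96. Of 9 neutrophil markers, 6 were higher after 162 µg of NRCWE-030 (median 0.30) and 5 after NRCWE-025 (median 0.02), with Lcn2 the highest (3.07 and 1.82) and Ngp and Camp well above background on 20 and 33 of the 69 arrays. Of 7 markers of recruited macrophages and monocytes, 6 were higher after 162 µg of NRCWE-030 (median 0.35; Trem2 called), and the list's mean level, 0.64 to 0.87 against 0.22 to 0.53 in the controls, did not overlap. After 162 µg of NRCWE-025, 5 of the 7 were higher (median 0.36), at 0.43 to 0.91.

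Mmp3 encodes stromelysin-1, which cuts proteoglycans and activates other proMMPs. On day 1 it read 0.17, -0.24, 0.00, 0.71 and -0.68 in the controls and 1.89, 1.54, 1.22, 1.11 and 0.91 after 162 µg of NRCWE-030. These groups did not overlap (change 1.34 ± 0.27, 2.54-fold). After 162 µg of NRCWE-025 it read 0.90, 0.54, 0.92, 1.49 and 1.32, with 4 of the 5 arrays above all controls (change 1.04 ± 0.26, 2.06-fold, 95% interval 0.50 to 1.58, adjusted p = 0.0898). It was 0.55 and 0.72 within the 2 slides that held both groups, and 0.55 to 2.17 within 3 scan days. Lower doses gave 0.58 ± 0.27 and -0.53 ± 0.27 for NRCWE-030 at 54 and 18 µg. For NRCWE-025 they gave 0.26 ± 0.26 and 0.11 ± 0.26.

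By day 28 Mmp3 lay within 0.36 of the controls at all doses of both materials. Its lowest adjusted p there was 0.716, at 162 µg of NRCWE-030 (-0.24 ± 0.14). The day difference at 162 µg was 1.59 ± 0.34 for NRCWE-030 and 0.98 ± 0.35 for NRCWE-025 (adjusted p = 0.278).

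Mmp19, a secreted protease that cuts basement membrane components, showed a smaller change on day 1. It read -0.58, -0.19, -0.45, -0.48 and -0.30 in the controls and 0.44, 0.09, 0.25, 0.08 and 0.32 after 162 µg of NRCWE-030. All treated arrays lay above the controls (change 0.64 ± 0.15, 1.55-fold), though the call was lost on leaving out any of 11 of the 20 arrays of the fit. After 162 µg of NRCWE-025 the values -0.29, -0.48, -0.29, 0.55 and 0.12 were split, 2 above the controls and 3 among them (change 0.32 ± 0.16, adjusted p = 0.414). At 54 µg of NRCWE-030 the change was 0.43 ± 0.15, with a single array at 0.69 above the others.

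Over the 12 treated groups, groups that did not overlap with the controls of their day were rare. With 162 µg of NRCWE-030 on day 1, 3 of 10 genes lay wholly above and 1 wholly below the controls, as did 2.9% and 1.65% of all genes. Timp1 was the 1 gene wholly above at 54 µg of NRCWE-030 (1.06% of all genes), 162 µg of NRCWE-025 (0.874%) and 54 µg of NRCWE-025 (0.541%) on day 1. On day 28, Mmp9 was the 1 gene wholly below the controls in 3 groups, 54 and 162 µg of NRCWE-030 and 162 µg of NRCWE-025.

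Mmp9 encodes gelatinase B, which cuts type IV collagen and gelatin. The day 28 comparisons asked which changes were present 4 weeks after instillation, and they took no part in the choice of the genes. The controls of day 28 read -0.93, -0.39, -0.36, -0.79 and -0.64. After 162 µg of NRCWE-030 the values were -1.84, -1.74, -1.54, -1.83 and -1.71, all below the lowest control, as in 1.02% of all genes, and close together (SD 0.12). Mmp9 fell by 1.11 ± 0.16 on the log2 scale, to 0.464-fold (95% interval -1.44 to -0.78, adjusted p = 0.00289). It was the 1 of 10 members called, in a contrast that called 0.0965% of all genes, and ranked 5th by p-value.

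After 54 µg of NRCWE-030, Mmp9 read -1.80, -1.68, -1.58, -1.66 and -1.18. All 5 again lay below the controls (0.799% of all genes), with a fall of 0.96 ± 0.16 and an adjusted p of 0.0168, the 1 of 10 members called where 0.0536% of all genes were. At 18 µg, values from -1.74 to -0.86 overlapped the controls (change -0.67 ± 0.16, adjusted p = 0.0993, 0 of 10 called against 0.118% of all genes, with 2 of 10 at an unadjusted p under 0.05). The F-test over the doses of NRCWE-030 on day 28 called Mmp9 alone of the 10 (adjusted p = 0.0103, 0.102% of all genes called).

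After NRCWE-025 the day 28 changes of Mmp9 were -0.32 ± 0.18, -0.47 ± 0.18 and -0.72 ± 0.19 at 18, 54 and 162 µg. The 4 arrays at 162 µg read -1.49, -1.72, -1.19 and -0.99, all below the controls (1.15% of all genes). The change did not pass the test (adjusted p = 0.345, 0.0161% of all genes called), nor did the dose effect (adjusted p = 0.657, 0.0268% of all genes called). At each of the 3 doses 0 of 10 members were called, with 1, 2 and 1 of 10 at an unadjusted p under 0.05 from the lowest dose to the highest.

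These falls are set against the controls of day 28, in which Mmp9 was higher than in any other group. The group mean was -0.62 ± 0.25 (SD, n = 5) there and -1.26 ± 0.40 in the controls of day 1. The difference between the controls of both days was 0.63 ± 0.21 (95% interval 0.21 to 1.06), which did not pass the test (adjusted p = 0.323, 0 of 10 members and 0.0375% of all genes called, with 1 of 10 at an unadjusted p under 0.05). In a comparison added after these values were seen, the day 28 groups were set against the day 1 controls. The change of Mmp9 was then -0.48 ± 0.21 at 162 µg of NRCWE-030 (adjusted p = 0.267), -0.33 ± 0.21 at 54 µg (adjusted p = 0.615) and -0.09 ± 0.23 at 162 µg of NRCWE-025 (adjusted p = 0.955). In these groups 0 of 10 members were called, against 210, 20 and 4 of all 18656 genes in the same order. The call of Mmp9 on day 28 thus rested on the controls of that day.

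Both probes of Mmp9 showed the fall. At 162 µg of NRCWE-030 on day 28 they changed by -1.18 ± 0.15 (adjusted p = 0.00120 over all probes) and -1.04 ± 0.17 (adjusted p = 0.0167), and their values correlated at 0.95 over the 69 arrays. The fall was also seen within each of the 3 slides that held control and treated arrays, from -1.37 to -0.90 at 162 µg and from -1.31 to -0.87 at 54 µg. For NRCWE-025 162 µg only 1 slide held both, with -0.70. The call at 162 µg was lost with local backgrounds used as deposited, where the change was -1.08 ± 0.24 (adjusted p = 0.260).

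On day 1 Mmp9 differed little from the controls, with changes of 0.35 at 162 µg of either material. Taken as day 1 minus day 28, the effect at 162 µg differed by 1.46 ± 0.30 for NRCWE-030 and 1.08 ± 0.31 for NRCWE-025 (adjusted p = 0.136). For NRCWE-030, Timp1, Mmp3 and Mmp9 were the 3 of 10 members called in this difference (0.198% of all genes). For NRCWE-025, 0 of 10 were called (0.059% of all genes), with 3 of 10 at an unadjusted p under 0.05. Both Mmp9 differences take in the controls of day 28, in which Mmp9 was higher than in those of day 1 (means -0.62 and -1.26).

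Neutrophil markers on day 28 were measured beside Mmp9, and their part in its fall was not tested. Of 9 markers, 2 were higher and 7 lower than the controls at 54 and 162 µg of NRCWE-030 (median changes -0.45 at both) and at 162 µg of NRCWE-025 (-0.33), and 0 were higher at 18 µg of NRCWE-030 (-0.51). Lcn2 was among the higher ones. Its group means were 3.01 and 3.21 at 54 and 162 µg of NRCWE-030 and 2.55 at 162 µg of NRCWE-025, against 1.39 in the controls. In the day 28 controls 7 of the 9 were higher than in the day 1 controls (median 0.35). None of these was called. The mean level of the list ran from 2.01 to 2.86 in the day 28 controls and from 2.06 to 2.66 at 162 µg of NRCWE-030. The 7 markers of recruited macrophages and monocytes were all higher at 162 µg of NRCWE-030 (median 0.50, none called), and the 4 fat markers were all lower (median -0.87).

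**Figure D3:**
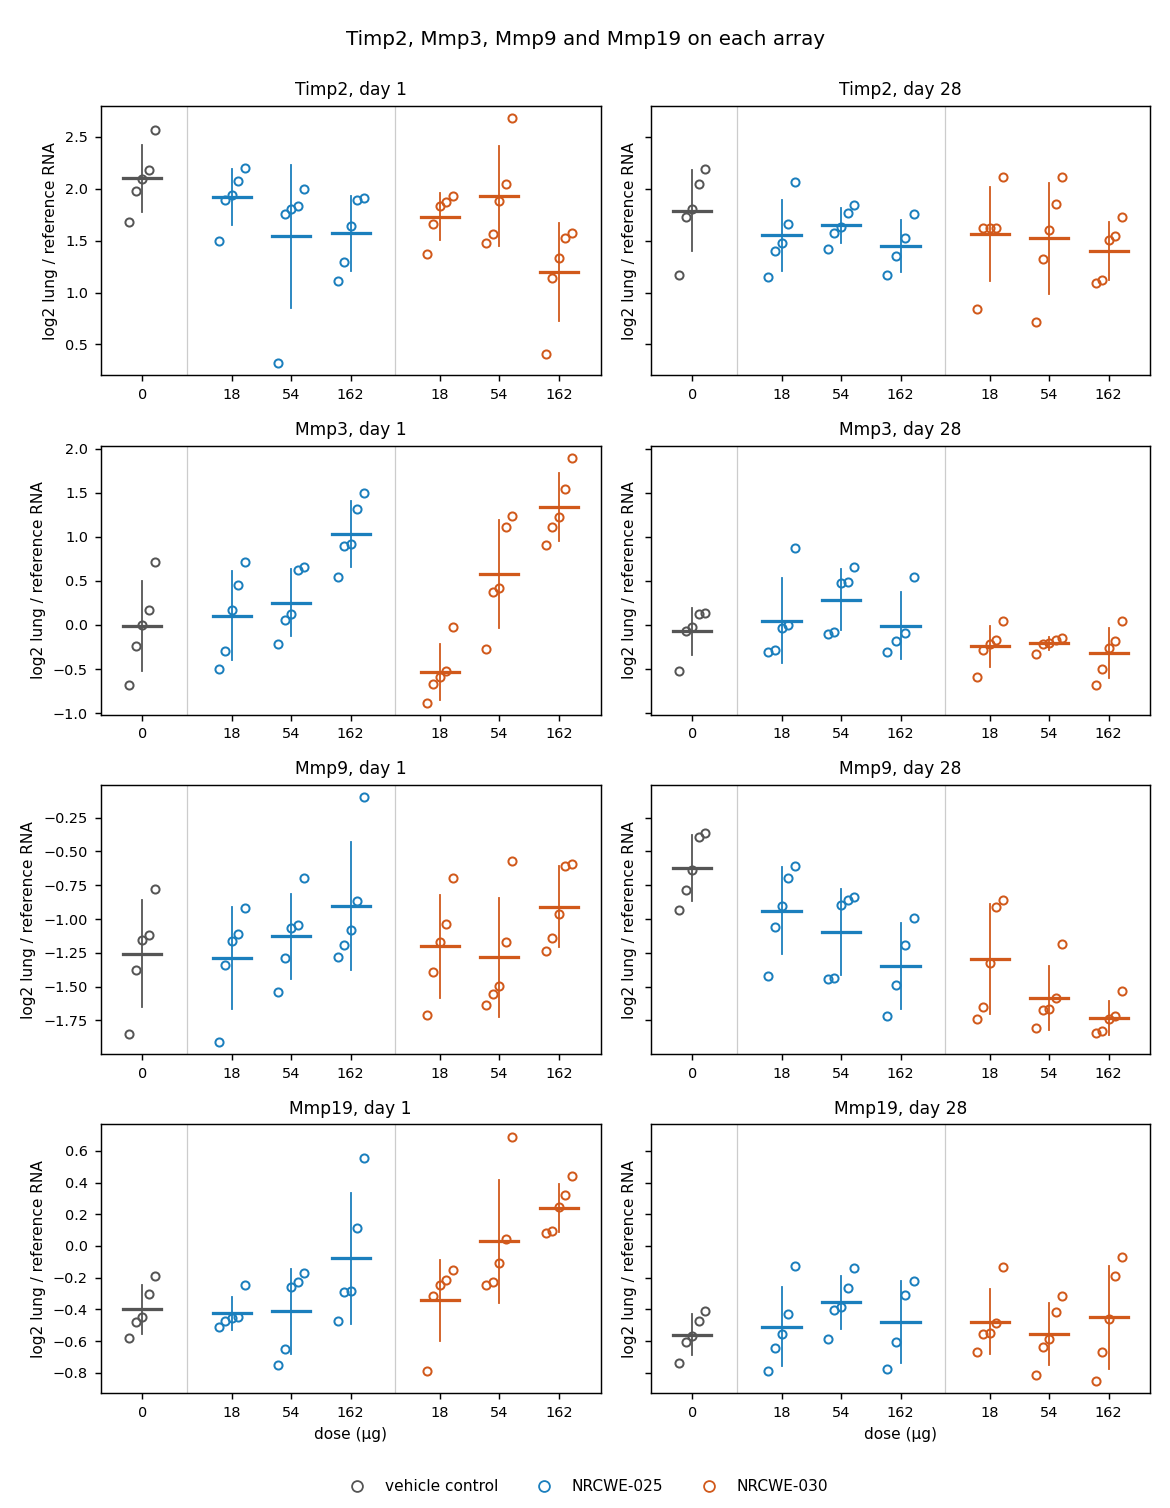
Timp2, Mmp3, Mmp9 and Mmp19 on each array as log2 lung over reference (vertical axis, its scale differs by gene), by dose in µg (horizontal axis) on days 1 and 28. Circles are mice, horizontal lines group means and vertical lines the SD; on day 28 Mmp9 lies at -0.93 to -0.36 in the controls and at -1.84 to -1.54 after 162 µg of NRCWE-030.

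Of the remaining proteases, none passed the test in any comparison with the main processing. Mmp2, gelatinase A, had changes between -0.46 and 0.04 over the 12 treated groups, and all 6 day 28 changes were negative, with adjusted p-values from 0.473 up. Mmp14, the membrane-type protease that activates proMMP-2, had changes from -0.36 to 0.07. Its probes correlated at only 0.50 over the 69 arrays and differed in sign at 162 µg of NRCWE-025 on day 1 (-0.19 on the brighter probe and 0.32 on the dimmer). They also did so at 54 and 162 µg of NRCWE-030 on day 1. There the brighter probe averaged -1.64 and -1.40 against -1.39 in the controls, and the dimmer -0.97 and -0.87 against -0.98. No direction is given for these groups.

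Mmp13, a collagenase, was well above background on 1 of 5 control arrays on each day, so its changes, from -0.05 to 0.42, were read mostly against floor values. Their adjusted p-values were 0.275 or higher outside NRCWE-030 day 1. The Mmp13 probe was well above background on 4, 4 and 5 of 5 arrays at 18, 54 and 162 µg of NRCWE-030 on day 28. After NRCWE-025 on that day it was so on 2 of 5, 3 of 5 and 3 of 4. Mmp12, the macrophage elastase, was well above background on 0 of the 5 controls of either day, and no fold is given for it. It was well above background on 1 of 5 arrays at 162 µg of NRCWE-030 on day 1. On day 28 it was so on 1 of 5, 3 of 5 and 3 of 5 arrays at 18, 54 and 162 µg of NRCWE-030 and on 2 of 4 at 162 µg of NRCWE-025.

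The materials were then compared at matched doses, as NRCWE-030 minus NRCWE-025, in 3 pairs on each day. The F-test over the pairs called 0 of 10 members on day 1 (0.155% of all genes) and 0 on day 28 (0.241%), with 3 and 1 of 10 at an unadjusted p under 0.05. The day 1 differences contain the NRCWE-030 values by which the genes were chosen and are given as a description. For Timp1 on day 1 they were 0.41 ± 0.42 at 18 µg, 1.19 ± 0.42 at 54 µg and 0.98 ± 0.42 at 162 µg. For Mmp3 at 162 µg on day 1 the difference was 0.30 ± 0.24. For Mmp9 on day 28 the adjusted p was 0.597, with differences of -0.36 ± 0.21, -0.49 ± 0.21 and -0.38 ± 0.23 from the lowest dose to the highest. The 95% interval at 162 µg ran from -0.84 to 0.07, which does not show that the materials act alike.

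Within a group, mice can be ranked by how far Timp1 departs from the group mean, which asks whether other members vary with it beyond dose. These deviations were correlated over the 35 arrays of day 1 and the 34 of day 28, with 100000 permutations within groups, two-sided, and adjusted over 20 relations. The day 1 arrays include those of NRCWE-030 and of the controls, by which the genes were chosen, so the day 1 p-values are given as a description. How many of all genes reach a similar r with Timp1 was not counted. On day 1 Mmp19 followed Timp1 with a Pearson r of 0.66 (permutation p = 0.00224, adjusted 0.0117) and a Spearman rho of 0.56 (p = 0.00619, adjusted 0.0248). Mmp3 did so with r = 0.54 (permutation p = 0.00193, adjusted 0.0117) and rho = 0.54 (p = 0.00189, adjusted 0.0126). On these arrays, mice with more Timp1 than their group thus tended to have more Mmp19 and Mmp3. Without the arrays farthest from 0, replicates 4 and 1 of NRCWE-025 162 µg (deviations 2.11 and -1.77), r was 0.57 and 0.54.

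The other inhibitors ran against Timp1 on day 1. For Timp2, r was -0.44 (permutation p = 0.0228, adjusted 0.0414) and rho -0.46 (p = 0.0153, adjusted 0.0340), and for Timp3, r was -0.49 (permutation p = 0.0110, adjusted 0.0245) and rho -0.50 (p = 0.00816, adjusted 0.0272). Mmp9 followed Timp1 with r = 0.53 (permutation p = 0.00404, adjusted 0.0162) and rho = 0.45 (p = 0.0126, adjusted 0.0335). Without the 2 farthest arrays these were -0.42, -0.51 and 0.42.

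On day 28 Mmp19 again followed it (r = 0.61, permutation p = 0.00235, adjusted 0.0117; rho = 0.58, p = 0.00188, adjusted 0.0126). Timp2 (r = -0.45, permutation p = 0.0174, adjusted 0.0349, and rho = -0.49, p = 0.0134, adjusted 0.0335) and Timp3 (r = -0.48, permutation p = 0.00928, adjusted 0.0232, and rho = -0.44, p = 0.0189, adjusted 0.0378) again ran against it. Mmp3 (r = 0.11, permutation p = 0.562, adjusted 0.661, and rho = 0.09, p = 0.630, adjusted 0.700) and Mmp9 (r = -0.29, permutation p = 0.0823, adjusted 0.130, and rho = -0.32, p = 0.0839, adjusted 0.129) did not pass.

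Mmp2 (r = 0.55, permutation p = 0.00748, adjusted 0.0232, and rho = 0.42, p = 0.0255, adjusted 0.0463) and Mmp13 (r = 0.64, permutation p = 0.000760, adjusted 0.0117, and rho = 0.61, p = 0.00111, adjusted 0.0126) passed on day 28. On day 1 they did not, with r = -0.25 for Mmp2 (permutation p = 0.199, adjusted 0.284) and r = 0.20 for Mmp13 (permutation p = 0.280, adjusted 0.374), and the difference between days was not tested. Nearly all Mmp12 values were floor signal, so the r of 0.55 for Mmp12 on day 28 is not read. Mmp13 was at the floor on part of the day 28 arrays, among them 4 of the 5 controls. Without replicates 4 and 5 of NRCWE-030 162 µg day 28, the arrays farthest from 0, r was 0.34 for Mmp2, 0.55 for Mmp13 and 0.46 for Mmp19. With scan day as a term, r was 0.71 and 0.78 for Mmp19 on days 1 and 28, 0.65 for Mmp3 on day 1, and -0.47 on both days for Timp2. The same term moved r for Mmp14 from 0.30 to 0.74 on day 1 and from 0.14 to 0.48 on day 28. It moved r for Mmp9 on day 28 from -0.29 to -0.53 and for Mmp2 on day 1 from -0.25 to -0.47. The share of spots well above background, a measure of array quality, had an r of 0.04 with Timp1 on day 1 (adjusted permutation p = 0.863, with a rho of 0.04, adjusted 0.833) and of -0.08 on day 28 (adjusted permutation p = 0.728, with a rho of -0.13, adjusted 0.605). With scan day as a term these were -0.28 and -0.29.

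**Figure D4:**
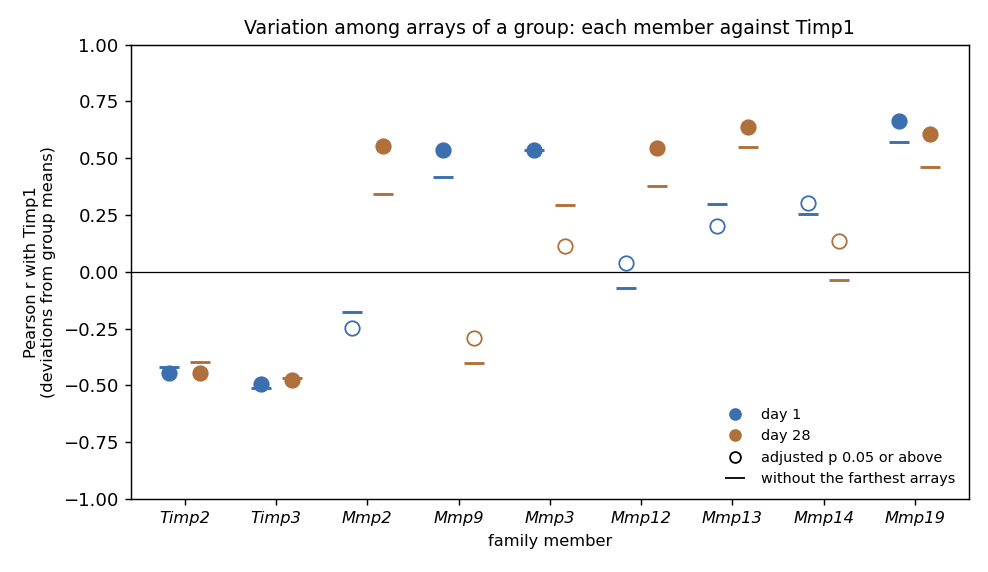
Pearson r (vertical axis) between the deviation of Timp1 and that of each other member from its group mean, over 35 arrays on day 1 and 34 on day 28 (horizontal axis: gene). Filled points had an adjusted permutation p under 0.05, open points did not, and dashes give r without the 2 arrays farthest from 0. The day 1 points are a description, since the genes were chosen by part of these arrays. Mmp19 lies at 0.66 and 0.61, Timp2 at -0.44 and -0.45.

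Across the 14 group means, the 5 genes most like Timp1 among 13709 well-detected genes were Saa1 (r = 0.99), Alpl, Saa3, Orm2 (all 0.99) and Ccl17 (0.98). Saa1, Saa3 and Orm2 encode acute phase proteins and Ccl17 a chemokine. Their log2 changes after 162 µg of NRCWE-030 on day 1 were 4.78 for Saa1, 7.31 for Saa3, 3.76 for Orm2, 1.38 for Ccl17 and 0.95 for Alpl. Of the members, Mmp19 ranked 44th (0.93) and Mmp3 271st (0.85) in this likeness. This describes 14 points that share dose and day, with no test.

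Other genes of the system were counted by list. Of 14 further MMPs tested (16 listed), 0 were called in any comparison. The largest share of all genes called against the controls of a day was 1.69%, at 162 µg of NRCWE-030 on day 1, so this count is near that of all genes. Among further inhibitors and binding partners, Lcn2, the lipocalin that binds MMP-9, rose by 3.07 ± 0.34 after 162 µg of NRCWE-030 on day 1. Reck, a membrane inhibitor of MMPs, fell by 0.54 ± 0.13 in that contrast. Of 13 inducers and receptors tested, Il1b rose by 1.27 ± 0.26 and Il6, whose probe was above background on 40 of the 69 arrays, by 1.21 ± 0.29 in the same contrast, with a median of 0.23 for the list.

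In the contrast of 162 µg of NRCWE-025 on day 1, 1 of 11 activating proteases and receptors was called, Plaur, the urokinase receptor, which rose by 0.64 ± 0.13 (adjusted p = 0.0386), where 0.209% of all genes were called. The medians of that list and of all genes were -0.02 and 0.00. The same contrast, with its 0.209% of all genes, called 1 of 13 TIMP-inhibited disintegrin proteases, Adamts9, a versican-cleaving protease, higher by 0.52 ± 0.10 (adjusted p = 0.0378). At 162 µg of NRCWE-030 the change of Adamts9 was 0.53 ± 0.10. Plaur was not called after NRCWE-030 on day 1, but its means were higher there too. They were 0.35, 0.46 and 0.50 at 18, 54 and 162 µg against -0.22 in the controls, and 0.42 at 162 µg of NRCWE-025.

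On day 28 Adamts9 lay below the controls, as Mmp9 did. It fell by 0.71, 0.70 and 0.68 at 18, 54 and 162 µg of NRCWE-025 (adjusted p = 0.00938, 0.0142 and 0.0291), and by 0.69 at 18 µg of NRCWE-030 (adjusted p = 0.0169), and had changes of -0.54 and -0.51 at 54 and 162 µg (adjusted p = 0.100 and 0.0962). Here too the day 28 controls were higher than those of day 1, by 0.74 ± 0.10 (adjusted p = 1.37e-05).

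Of 12 matrix substrates, 1 was called. Eln, which encodes elastin, fell by 0.64 ± 0.11 at 162 µg of NRCWE-030 on day 28 (adjusted p = 0.0203, 0.0965% of all genes called), and its change was -0.59 ± 0.11 at 54 µg (adjusted p = 0.0573). The median of the list at 162 µg was -0.31, against 0.00 over all genes. At 162 µg of NRCWE-025 on day 28 Eln changed by -0.20 ± 0.20 (adjusted p = 0.869). Eln was not called on day 1, where its means after NRCWE-030 were 1.56, 1.47 and 1.61 at 18, 54 and 162 µg. After NRCWE-025 they were 2.23, 1.68 and 1.84. The controls averaged 2.02 on day 1 and 2.16 on day 28.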

How the data were processed

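Gene expression in 69 mouse lungs was read on 2-colour arrays. The deposited scanner files (Agilent Feature Extraction 11.0.1.1) hold, per spot, the median signal and local background as linear intensity, uncorrected, a log10 ratio of Cy5 to Cy3 that the scanner software corrected for background and dye, and flags of 0 or 1. The deposited series matrix holds log2 ratios, normalised by the authors with LOWESS array by array. It correlated with loess on uncorrected signals at a median of 0.996 (lowest 0.922). Symbols came from matching each probe's accession to RefSeq (GRCm38.p6). How the background was corrected for the series matrix is not given in the sources used here.

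Of 45018 spots, 43379 were not controls. Flagged spots were left out. Where the scanner software marked a local background as an outlier, the median of that array's unmarked backgrounds took its place, and normexp (offset 50), loess within arrays, and medians over spots, probes and symbols followed, in limma 3.58.1, R 4.3.3, Python 3.11.15 and matplotlib 3.10.9. Of 41174 probes, 27479 (66.7%) had a symbol, 18749 symbols in all, and 18656 had values on all arrays. One limma fit per material and day held control and 3 doses, and 1 fit of 14 groups gave the differences between materials, days and controls. A gene was called where its two-sided p, adjusted by Benjamini-Hochberg over all genes, was under 0.05. Groups came from the labels, each array is 1 mouse, and the fits and the correlation test were checked on simulated data. The members, the lists, the markers and the replacement of backgrounds were chosen with earlier results of these data known. All 10 members were to be named, called members of each list, and the 5 genes most like Timp1. Part of the list of further inhibitors is not reported here. Arrays came from 19 slides and 11 scan days, each with over 1 group. Alternatives were other background corrections, normalizations, probe summaries, flags, blocks and an unmoderated test. The number of arrays limits the precision.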

Additional observations from a re-analysis of the deposited data

Results flagged for a closer look

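Of the 140 combinations of a member and a group, 5 held an array apart from the others of its group by Dixon's criterion, which chance meets in about 1 in 20 groups. They were Mmp19 in replicate 1 of NRCWE-025 18 µg day 1 (-0.25) and in replicate 2 of NRCWE-030 18 µg day 1 (-0.79), Mmp2 in replicate 4 of NRCWE-025 162 µg day 28 (-1.12), Mmp3 in replicate 3 of NRCWE-025 18 µg day 28 (0.87) and Timp2 in replicate 3 of NRCWE-025 54 µg day 1 (0.32). None of them belonged to a group in which a member was called.

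The effect of 162 µg of NRCWE-030 differed between day 1 and day 28, by limma's contrast of both effects, for Timp1 (2.85), Mmp3 (1.59) and Mmp9 (1.46). These differences contain the day 1 contrast by which the genes were chosen. The Mmp9 difference also takes in the day 28 controls, in which Mmp9 was higher than in those of day 1.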

How the results depend on the processing

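Over 13 alternatives, each changing 1 choice, and 1 added after the data were seen, 0 directions of called values turned. After 162 µg of NRCWE-030 on day 1 the count of called members was 4 as reported. It was 2 with normexp on deposited backgrounds or an ordinary test, and 1 with slide and 0 with scan day as a fixed block. The highest count was 5. Mmp12, mostly at the floor, was called with the scanner log ratio (limma adjusted p = 0.0136). At 54 µg the count, 0, became 1 with the brightest probe, with dim probes left out or with slide as a random block. For NRCWE-025 162 µg on day 1 the count rose to 1 with the brightest probe (Timp1, 2.88, adjusted p = 0.0498) or slide as a random block (2.09, adjusted p = 0.0493), and its dose effect rose to 1 with slide as a random block. On day 28 the count at 162 µg of NRCWE-030 fell to 0 on deposited backgrounds and against the day 1 controls. At 54 µg it fell to 0 in those settings and with no background correction, an ordinary test or the series matrix values. At 18 µg it rose to 1 with the scanner log ratio or slide as either block. The dose effect of that material on day 28 was 0 with no background correction, deposited backgrounds or an ordinary test, and 2 with either slide or scan day as fixed block. With scan day as a fixed block, 1 member was called between the controls of both days and in the day difference of NRCWE-025. In the day difference of NRCWE-030, Mmp9 was not called on deposited backgrounds (limma adjusted p = 0.137) or with the series matrix values (0.0566). Timp1 was not called there with scale normalization between arrays (limma adjusted p = 0.0585) or slide as a fixed block (0.0766). The cause of these moves was not tested.

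With single arrays left out, the counts ran from 2 to 4 (NRCWE-030 162 µg day 1), 0 to 1 (54 µg of that material on both days, 18 µg on day 28 and its day 28 dose effect), 0 to 1 (NRCWE-025 162 µg and its dose effect on day 1, both moved by replicate 1 of that group), 0 to 1 (material difference on day 1, moved by replicate 4 of NRCWE-025 162 µg) and 2 to 3 (day difference of NRCWE-030, dose effect of NRCWE-030 on day 1). For NRCWE-030 162 µg on day 1 the count was 2 without replicate 1, 2 or 5 of that group, replicate 4 at 18 µg or control replicate 2, 3, 4 or 5. At 54 µg it was 1 without replicate 1 or 4 of that group or replicate 3 at 18 µg, and on day 28 at 18 µg it was 1 without replicate 5. The Mmp9 call at 54 µg of NRCWE-030 on day 28 was lost without replicate 1, 2 or 4 of that group or replicate 2 or 3 of the controls, and the F-test without replicate 2 or 3 of the controls. At 162 µg the fall of Mmp9 ran from -1.19 to -1.04 and its adjusted p from 0.00122 to 0.0157. No paired analysis was possible because the labels number samples across the series and share no replicate numbers between groups.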
